A study of Mus musculus with 6 samples.

Results

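Genes of the bile duct lining and of liver progenitor cells were followed in the liver of Fra-1hep mice. These carry a hepatocyte-restricted excess of Fra-1, the product of Fosl1 and a partner of Jun proteins in AP-1. The set held 10 genes: Tff3, Spink1, Spp1 and Dmbt1, which encode secreted products, and Prom1, Cldn7, Epcam, Krt19, Krt7 and Sox9, which encode membrane, junction and cytoskeletal proteins and a transcription factor of cholangiocytes. All 10 were matched by RefSeq accession to 11 of the 55681 probes on the array, with 2 probes for Prom1 and 1 for each other gene, and each probe was kept apart. Total liver RNA of 5 single Fra-1hep mice (C57BL/6J, 26 to 28 weeks old, untreated) was labelled with Cy5 and set on 5 arrays against 1 Cy3-labelled pool of 5 chow-fed C57BL/6J wild-type mice of the same age. The dyes were exchanged on the remaining array, where Cy3 marked pooled RNA of Fra-1hep mice and Cy5 the same wild-type pool. The labels do not give the promoter that drives the transgene or the number of mice in the Fra-1hep pool, and the design text speaks of 6 single mutant mice where the sample labels give 5.

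Cholangiocytes are the epithelial cells that line the bile ducts. They are told from hepatocytes by the keratins Krt7 and Krt19, the adhesion molecule Epcam, tight junction claudins, the apical membrane protein Prom1 (CD133) and the transcription factor Sox9, and several of these also mark progenitor-like cells that appear after liver injury. Spp1 (osteopontin), Tff3 (a trefoil peptide) and Dmbt1 (a scavenger-receptor glycoprotein) are released from ductal and mucosal epithelia, and Spink1 is a secreted trypsin inhibitor best known from pancreas. In these arrays of whole liver RNA, more cells of a type and more RNA per cell cannot be told apart.

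Each array gave a log2 ratio of Fra-1hep over the wild-type pool, so that 1.00 stands for a doubling and positive values are higher in Fra-1hep liver. The share of probes well above background per array was 48.5 to 58.9% for Fra-1hep RNA and 45.0 to 50.7% for wild-type RNA, and 0 spots were saturated. On every mouse array the share was larger for Fra-1hep RNA, labelled with Cy5. On the dye-swapped array it was larger for wild-type RNA (50.7 against 48.5%), there labelled with Cy5, so these shares do not compare the genotypes. All 10 hepatocyte markers examined were above background. The only Fosl1 probe, the check of the labels, gave no signal well above background in either genotype on any of the 6 arrays (log2 -0.07, SE 0.06, adjusted p = 0.655 in a limma fit without the filter on dim probes), so it does not check the labels. The arrays of mice 2 and 3 differed by 1.03 times the spread between replicate spots, against 1.84 to 2.30 times for the other pairs of mice, and were counted as 1 sample. Fitted values below therefore rest on n = 4 Fra-1hep samples and the dye-swapped array, with the standard error (SE) from limma and p adjusted over all 30105 probes tested. The wild-type pool is 1 sample, so the spread of wild-type mice does not enter any test.

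Of the 10 member probes tested, 6 were higher and 1 was lower in Fra-1hep liver at an adjusted p under 0.05, and 3 did not pass. Over all probes tested 11.6% were called (5.52% higher and 6.05% lower). The members' median log2 ratio was 0.51, against 0.01 for all tested probes. A ratio of the same sign on all 6 arrays was seen for 9 of the 10 member probes and for 25.5% of all probes. The members are named here with earlier results of these arrays known, so their share says nothing of biliary genes in general. All 10 tested probes were well above background on at least 3 arrays in both genotypes. Higher probes made up 47.7% of all changed probes. This split moved to 74.3% where arrays were centred on their median in place of loess, with the members still 6 higher and 1 lower.

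**Figure D1:**
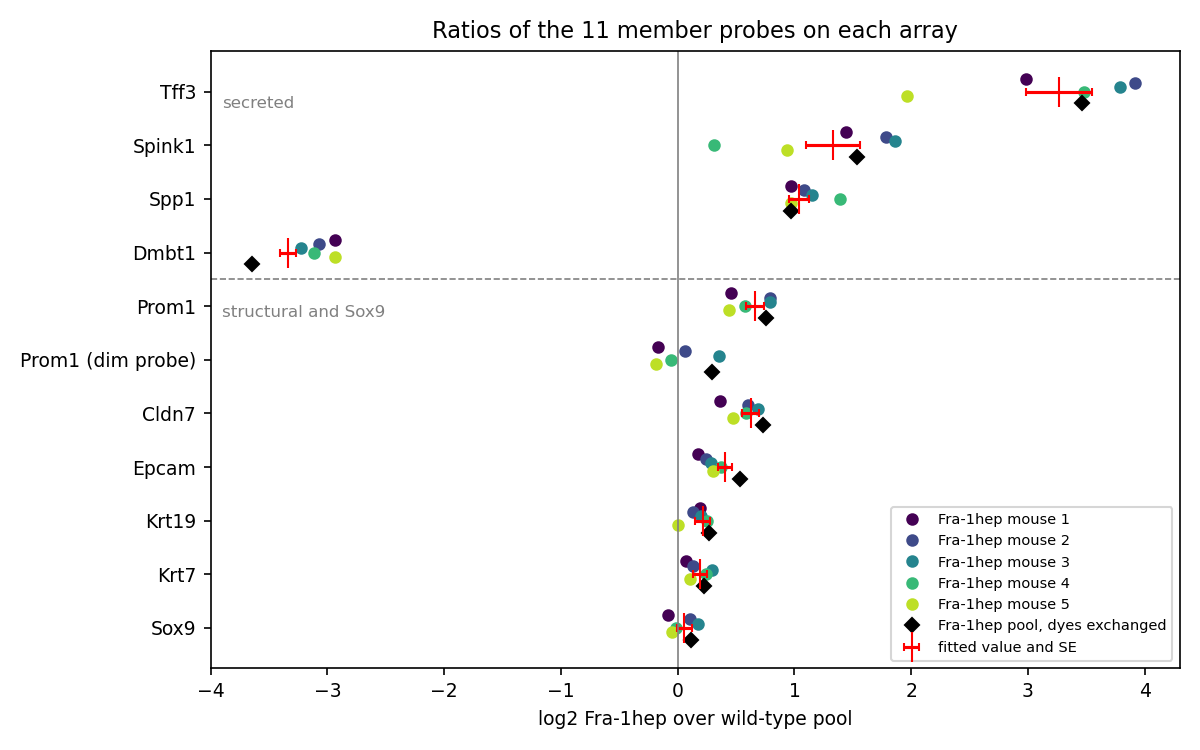
Log2 ratio of Fra-1hep over the wild-type pool (horizontal axis) for each of the 11 member probes (rows), with a circle for each of 5 mouse arrays, a diamond for the dye-swapped array of pools, and the fitted value with its SE in red for the 10 tested probes. Tff3 lies furthest to the right (fitted 3.27) and Dmbt1 furthest to the left (-3.34), while the rows under the dashed line stay between -0.19 and 0.79.

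The 4 secreted products moved most, 3 of them higher and Dmbt1 lower. Tff3 (NM_011575, probe A_51_P456208), a small trefoil peptide that protects mucosal surfaces, had processed signals of 8143, 22526, 22628, 14603 and 3958 in mice 1 to 5, against 981, 1377, 1542, 1161 and 940 for the wild-type pool on the same arrays. The lowest Fra-1hep signal exceeded the highest reading of the wild-type pool, whose readings hold no spread of wild-type mice. The log2 ratios of the 5 mice were 2.99, 3.91, 3.79, 3.48 and 1.96, and the pool on the dye-swapped array gave 3.46. Tff3 was 9.61-fold higher (fitted log2 3.27, SE 0.28, limma adjusted p = 0.000438), ranking 9 from the highest of 30105 probes. Mouse 5 stood lowest and the averaged arrays of mice 2 and 3 highest. The SD over the 4 samples was 0.82, and only 0.319% of tested probes had a larger one.

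Spink1 (NM_009258, probe A_51_P365516), known in the mouse also as Spink3, had log2 ratios of 1.44, 1.78, 1.86, 0.31 and 0.93 in mice 1 to 5 and 1.53 in the Fra-1hep pool. Its processed signals ran from 121 over a median of 323 to 535 in the Fra-1hep channel, against 65.8, 77.6 and 94.8 in the wild-type channel over the 6 arrays. The lowest Fra-1hep signal, that of mouse 4, stood close to the highest reading of the wild-type pool. The wild-type readings are of 1 pool and hold no spread of wild-type mice. Spink1 was 2.52-fold higher (log2 1.33, SE 0.23, limma adjusted p = 0.00852). The SD over the 4 samples was 0.65, a value exceeded by 0.595% of tested probes. The call of Spink1 ended with an intensity trend and robust variance (adjusted p = 0.105) and with the authors' processed signals (log2 1.93, adjusted p = 0.0643).

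Tff3 and Spink1 did not vary between mice in the same order, since Spink1 was lowest in mouse 4 and Tff3 in mouse 5. Neutrophil markers also differed widely between the mice: their median log2 ratio over 11 tested genes was 0.83, 2.64, 2.56, 2.96 and 0.77 in mice 1 to 5 and 2.50 in the Fra-1hep pool. Of these markers 9 of 11 were higher in Fra-1hep liver and 0 lower, with summed processed signals of 38431 to 83750 in the Fra-1hep channel, against 26030 to 35177 in the wild-type channel. Of the 9, 2 were tested only because of their signal in Fra-1hep liver, and with an intensity trend and robust variance the count was 2. All 11 were well above background on at least 1 array, and the part of neutrophil RNA in the values of Tff3 and Spink1 was not tested.

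Spink1 is abundant in the exocrine pancreas, so markers of acinar cells were examined. Of 15 such markers on the array, 6 were tested and 1, the elastase gene Cela1, was higher (log2 3.52, SE 0.09, limma adjusted p = 7.72e-07), while 5 did not pass. Prss1, Prss2, Cpb1, Cela3b, Pnlip, Ptf1a and Try4, which are 7 of the 15 acinar genes, reached a signal well above background on 0 arrays. In contrast, Amy2a5 (log2 0.00), Clps (0.04), Ctrb1 (0.13) and Cel (0.17) were well above background on all 6 arrays in both genotypes. Cela2a (0.18) was so on 6 arrays in Fra-1hep RNA and on 1 in wild-type RNA. The summed processed signal of the list was 4168 to 5596 in the Fra-1hep channel, against 3280 to 4427 in the wild-type channel. The part of acinar RNA in the value of Spink1 was not tested.

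Spp1 (NM_009263, probe A_55_P2085142) encodes osteopontin, a secreted phosphoprotein that binds integrins and Cd44. Its log2 ratios were 0.97, 1.08, 1.15, 1.39 and 0.97 in mice 1 to 5 and 0.97 in the Fra-1hep pool. Mouse 4 stood highest, and all 6 ratios were positive. The SD over the 4 samples was 0.20, and 15.3% of tested probes had a larger one. Processed signals were 705, 1060 and 1152 (lowest, median and highest of 6 arrays) for Fra-1hep, against 323, 416 and 490 for wild type. Spp1 was 2.06-fold higher (log2 1.04, SE 0.09, limma adjusted p = 0.000376), and this held under each of 17 alternative settings (log2 0.99 to 1.18).

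Dmbt1 (NM_007769, probe A_55_P2144686), also named hensin in the rabbit, is a large glycoprotein of epithelial surfaces that binds bacteria. It moved in the opposite direction to the other secreted products. Processed signals were 374, 397, 348, 295 and 330 in mice 1 to 5, against 3513, 4026, 4137, 3250 and 3179 for the wild-type pool. The log2 ratios were -2.94, -3.07, -3.23, -3.11 and -2.94, and -3.65 on the dye-swapped array. Dmbt1 was 10.1-fold lower (log2 -3.34, SE 0.07, limma adjusted p = 3.34e-07) and ranked 2 from the lowest of 30105 probes. In contrast to Tff3, its SD over the 4 samples was 0.11, close to the median SD of all tested probes of 0.12. The dye-swapped array gave the largest fall, and the fitted dye term was 0.31. Without that array the value was -3.03.

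**Figure D2:**
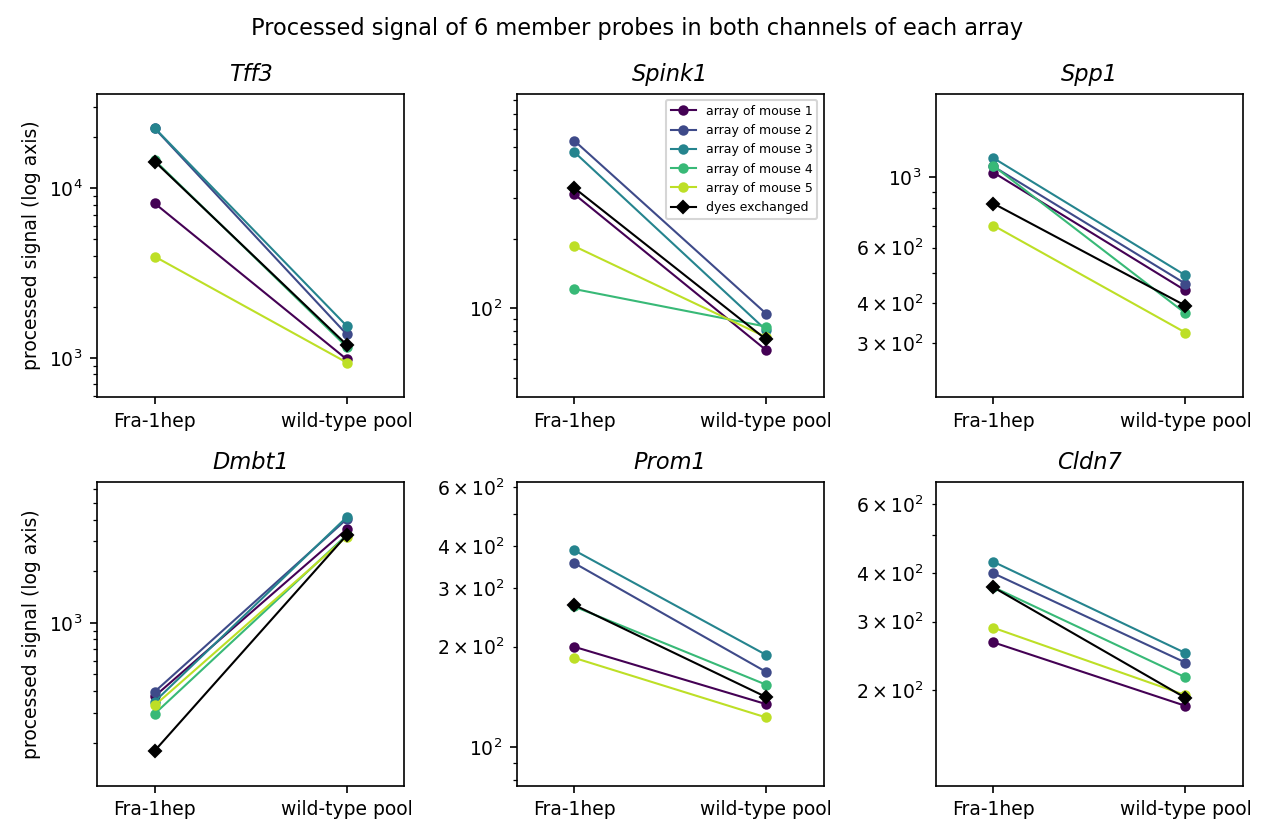
Processed signal, the authors' background-subtracted and dye-normalised intensity, on a log axis for 6 member probes, with the Fra-1hep channel at left joined to the wild-type channel of the same array at right (circles, mouse arrays; diamonds, dye-swapped array). Every line of Tff3, Spink1, Spp1, Prom1 and Cldn7 runs down towards wild type, and every line of Dmbt1 runs up, at 180 to 397 in Fra-1hep and 3179 to 4137 in wild type.

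The structural members moved less, and those that passed were all higher. Prom1, the CD133 glycoprotein of apical membrane protrusions, was 1.58-fold higher on probe A_55_P2059931 (NM_001163577), with a fitted log2 of 0.66 (SE 0.08, limma adjusted p = 0.00172). On this probe mice 1 to 5 stood at 0.45, 0.79, 0.79, 0.58 and 0.44, and the Fra-1hep pool at 0.75. The second Prom1 probe (A_52_P402786, NM_008935) reached a signal well above background in Fra-1hep RNA on 1 of 6 arrays and in wild-type RNA on 0 of 6, and was not tested. Its ratios of -0.19 to 0.36 fell on both sides of 0.

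Cldn7 (NM_016887), a claudin of epithelial tight junctions that also lies along the lateral membrane, had log2 ratios of 0.36, 0.61, 0.69, 0.58 and 0.48 in mice 1 to 5 and 0.73 in the Fra-1hep pool. It was 1.54-fold higher (log2 0.62, SE 0.07, limma adjusted p = 0.0014). Epcam (NM_008532), a homophilic adhesion molecule of ductal and progenitor epithelium, had ratios of 0.17, 0.24, 0.28, 0.37 and 0.30 in mice 1 to 5 and 0.53 in the Fra-1hep pool. These ratios were small and of a single sign. Epcam was 1.32-fold higher (log2 0.41, SE 0.06, limma adjusted p = 0.00549). Its probe is dim, with processed signals of 49.0 to 78.7 in Fra-1hep, against 17.7 to 43.5 in wild type, where it was well above background on 4 of 6 arrays. With the authors' processed signals the Epcam value was 1.41 on the log2 scale (adjusted p = 0.0192), and without the dye-swapped array it was 0.28, so its size depends on these choices.

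The keratins were slightly higher on all 6 arrays but did not pass. Krt19 (NM_008471), a type I keratin of simple ducts, had log2 ratios of 0.19, 0.13, 0.20, 0.25 and 0.01 in mice 1 to 5 and 0.27 in the Fra-1hep pool, and a fitted value of 0.21 (95% interval 0.06 to 0.37, limma adjusted p = 0.0819). Krt7 (NM_033073), a type II keratin of ducts, had ratios of 0.07, 0.13, 0.29, 0.24 and 0.10 in mice 1 to 5 and 0.22 in the Fra-1hep pool. Its fitted value was 0.19 (95% interval 0.05 to 0.33, limma adjusted p = 0.0977). Krt7 is as dim as Epcam, with signals of 34.0 to 70.0 in Fra-1hep and 24.3 to 41.4 in wild type, and the authors' processed signals gave 0.66 (adjusted p = 0.0779). Neither keratin passed in any of the 17 alternative settings.

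Sox9 (NM_011448), the transcription factor that specifies ductal and progenitor cells, was spotted 10 times on each array, of which 8 to 10 spots were used. Its averaged ratios were -0.08, 0.10, 0.17, -0.02 and -0.05 in mice 1 to 5 and 0.12 in the Fra-1hep pool. The SD between spots of an array was 0.06 to 0.15, about as large as the differences between arrays. The fitted value was 0.06 (95% interval -0.09 to 0.21, limma adjusted p = 0.657), so a rise of the size seen for Prom1 or Cldn7 lay outside the interval of Sox9. It was the single tested member whose arrays had no common sign.

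Set side by side, the secreted products had absolute log2 values of 1.04 to 3.34 (4 of 4 probes called) and the structural genes with Sox9 had 0.06 to 0.66 (3 of 6 called). The median absolute value was 2.30 for the secreted products and 0.31 for the others, against 0.09 for all tested probes. On 5 of 6 arrays, every secreted member differed from wild type by more than every structural member and Sox9 did. The exception was the array of mouse 4, where Spink1 (0.31) was below Cldn7 (0.58). This separation depends on the processing. With the authors' processed signals and loess, the fitted value of Epcam, a dim probe, was 1.41 and exceeded that of Spp1 (1.18). The lists hold few genes and were formed with these values known, so no test was made between them. The contrast is limited to the members. Among the other cholangiocyte genes described below, Ddr1 (1.90), Itga6 (1.70) and Bicc1 (1.11) rose more than Spp1. The median fitted log2 ratio was 0.24 for those genes and 0.00 for the other epithelial secreted products, of which Spink4 fell most (-1.32).

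**Figure D3:**
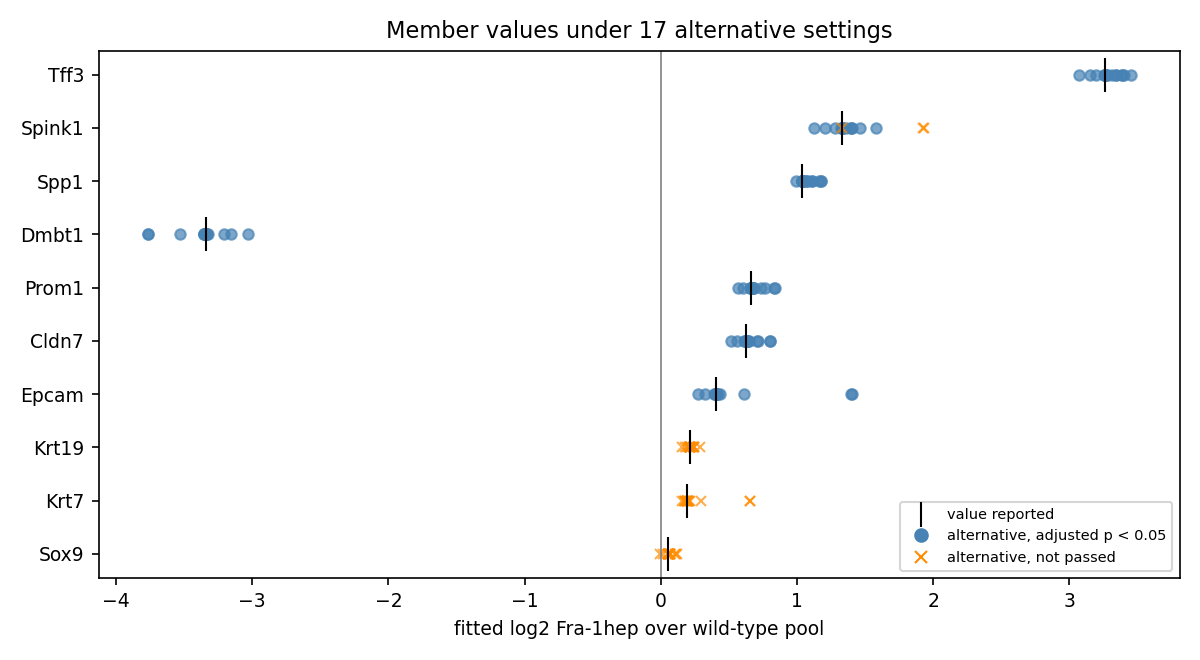
Fitted log2 ratio of Fra-1hep over wild type for the 10 tested member probes, with a black bar for the value given in the text and a mark for each of 17 alternative settings (circles, adjusted p under 0.05; crosses, not passed). Tff3, Spp1, Dmbt1, Prom1, Cldn7 and Epcam keep circles throughout, Spink1 has crosses at 1.33, 1.92 and 1.93, and both keratins and Sox9 have only crosses.

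Other genes of cholangiocyte structure, transport and transcription were also higher more often than lower. Of 38 genes listed, 33 were tested, with 13 higher, 1 lower and 19 not passed, and a median log2 ratio of 0.24, against 0.01 for all tested probes. The largest fitted rises were in Ddr1, a collagen receptor kinase of epithelia (1.90, SE 0.09, adjusted p = 2.49e-05; in wild-type RNA well above background on 2 of 6 arrays), Itga6, the laminin-binding integrin subunit (1.70, SE 0.08, adjusted p = 3.03e-05), and Bicc1, an RNA-binding protein linked to cystic ducts (1.11, SE 0.08, adjusted p = 0.000192), all from limma. Itga6 ran from 1.43 to 1.92 over the 6 arrays. The water channel gene Aqp1, which is also expressed by endothelium, fell (-0.53, SE 0.14, adjusted p = 0.0457), with mouse 1 at -0.07 and the averaged mice 2 and 3 at -0.93. Its call ended with the authors' processed signals or log ratios, normexp offset 16, median centring, an intensity trend, the brightest probe per gene, and without mouse 4 or mouse 5. Of 10 endothelial markers 7 were lower and 1 was higher (median -0.44), with summed processed signals of 16138 to 19309 in Fra-1hep, against 23706 to 30639 in wild type. Only 1 endothelial marker was lower with the authors' processed signals, and their part in the values of Aqp1 and of the progenitor gene Cd34 was not tested. Of the 13 that rose, 3 were tested only because of their signal in Fra-1hep liver, Ddr1 among them. The count of risers was 8 with the authors' log ratios as deposited and 18 without the dye term.

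Partners of the members mostly did not pass. Krt8 and Krt18, the keratin pair that hepatocytes and cholangiocytes share, had values of -0.02 (95% interval -0.15 to 0.12) and 0.28 (0.07 to 0.49), with limma adjusted p of 0.882 and 0.0971. Krt8 was lower in all 5 mice and higher only on the dye-swapped array. The claudins Cldn3 (0.24, adjusted p = 0.119) and Cldn4 (0.11, adjusted p = 0.359) did not pass. Cldn8, a claudin named after its values were seen, was called higher (limma adjusted p = 0.0343, 95% interval of the fitted log2 0.14 to 0.51). Its signal in wild-type RNA was well above background on 0 of 6 arrays, so it was tested only because of its signal in Fra-1hep liver. A bound taken apart from the fit was 1.26-fold, is open to dye bias and is not a lower confidence limit. For this bound, Fra-1hep was set on each array against the higher of 2 wild-type values. These were the probe's own wild-type signal and the lowest wild-type signal well above background. The biliary transcription factor gene Onecut1 (-0.25, adjusted p = 0.621) did not pass. Prom2, a relative of Prom1, reached a signal well above background on 0 arrays. The trefoil gene Tff2 had a value of 0.01 (95% interval -0.16 to 0.19, adjusted p = 0.939), and Tff1 reached a signal well above background on 0 arrays.

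Of 25 further epithelial secreted products and genes listed with them, 15 were tested, 2 were higher, 5 were lower and 8 did not pass (median 0.00). Spink4, a relative of Spink1, fell (log2 -1.32, SE 0.08, limma adjusted p = 8.5e-05), on all 6 arrays, with a signal well above background in Fra-1hep RNA on 1 array and in wild-type RNA on all 6. Lcn2, the siderophore-binding lipocalin, was lower (-0.82, SE 0.07), as was Wfdc2, a whey acidic protein (-0.51, SE 0.09). The risers were Wfdc15b (0.44, SE 0.10), of the same whey acidic family, and Dcdc2a (0.30, SE 0.07), a doublecortin protein of cilia that is not itself secreted. With the authors' processed signals 0 were higher and 2 lower. Over all probes tested 5.52% were higher and 6.05% lower, and the counts of this list were not tested against these shares.

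Progenitor and oncofetal genes did not move together. Of 10 tested, Cd34, a sialomucin of progenitor and endothelial cells (log2 0.47, SE 0.10), and Ncam1, a neural adhesion molecule found on reactive ductules (0.31, SE 0.07), were higher and the receptor kinase gene Kit (-0.60, SE 0.13) was lower, while 7 did not pass. Among these 7, Tnfrsf12a (0.74, SE 0.21, limma adjusted p = 0.0622) and Afp (0.59, SE 0.21, adjusted p = 0.124) had larger fitted rises than Cd34. Thy1 (-0.28) and Tbx3 (-0.21) leaned lower. In this list 1 gene was higher and 0 were lower with the authors' processed signals. Among 15 tested genes of the Notch pathway, which directs duct formation, Sox4 (0.38, SE 0.09) and Dtx1 (0.30, SE 0.07) were higher, and Notch4 (-0.39, SE 0.07) and Lfng (-0.26, SE 0.07) lower. The value of Dtx1 rests on the dye-swapped array (0.52), since its mice lay between -0.03 and 0.21. With the authors' processed signals 0 Notch genes were higher and 1 was lower. The Notch ligand gene Jag1 did not pass (0.17, limma adjusted p = 0.201). In the YAP pathway, which favours a biliary state in liver, 5 of 14 tested genes were higher and 1 lower. The largest rises were in Ccn2 (0.47, SE 0.10), Yap1 itself (0.41, SE 0.07) and Ankrd1 (0.37, SE 0.07), and the receptor kinase gene Axl fell (-0.37, SE 0.07). Ankrd1 was well above background in wild-type RNA on 1 of 6 arrays and was tested only because of its signal in Fra-1hep liver. With the authors' processed signals 1 YAP gene was higher. The counts of these 3 short lists were not tested against the shares over all probes (5.52% higher and 6.05% lower), so they do not describe a pathway as a whole.

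Receptors of osteopontin went in both directions. Of 9 tested, Itga8 (log2 0.71, SE 0.10, limma adjusted p = 0.00377) and Itgb5 (0.49, SE 0.07, adjusted p = 0.00419) were higher, and the integrin subunits Itga9 (-0.46, SE 0.08) and Itga4 (-0.41, SE 0.07) lower, while 0 were lower with the authors' processed signals. Cd44 did not pass (-0.34, adjusted p = 0.061). The share over all probes was 5.52% higher and 6.05% lower, and the receptor counts were not tested against it. Macrophages also make osteopontin, and of 11 macrophage markers tested 9 were lower and 1 was higher. The higher marker was Trem2 (log2 0.48, SE 0.10, limma adjusted p = 0.0186). With the authors' processed signals 2 macrophage markers were lower and 0 higher. The summed processed signal of the macrophage markers was 30495 to 53439 in Fra-1hep, against 59223 to 83318 in wild type. The part of macrophage RNA in the value of Spp1 was not tested.

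**Figure D4:**
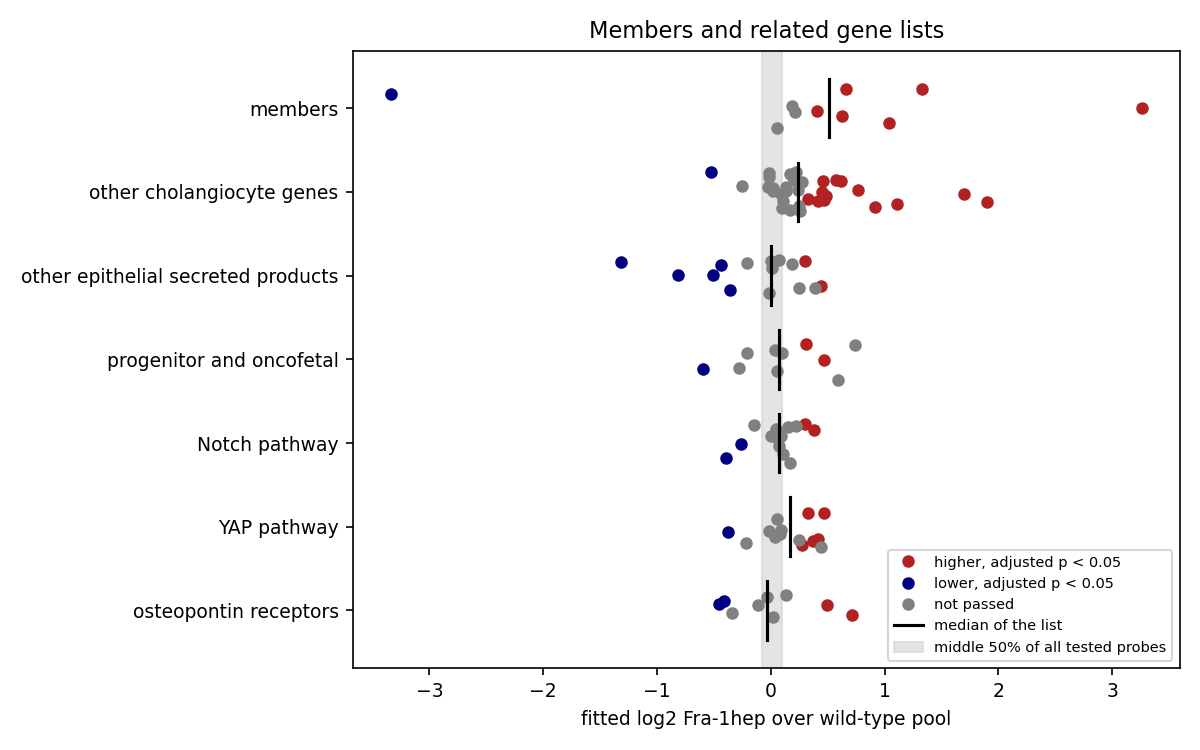
Fitted log2 ratio of Fra-1hep over wild type for the tested members and for the tested genes of 6 related lists (rows), with red for higher, blue for lower and grey for not passed, a black bar for each list's median and a grey band for the middle 50% of all tested probes (-0.08 to 0.09). The medians of the members (0.51), the other cholangiocyte genes (0.24) and the YAP pathway (0.17) lie right of the band, and that of the osteopontin receptors (-0.03) lies inside it.

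Because Fra-1 binds DNA as part of AP-1 dimers, the promoters of members were searched for the AP-1 element TGACTCA and the related element TGACGTCA on both strands. RefSeq windows (build GRCm38.p6) were given for 5 of the 10 members: Prom1, Cldn7, Spp1, Epcam and Krt7. The 250 bases before each of their 8 start sites were read, and 2 of the 8 held a match. Over all 32851 windows, 4.46% held TGACTCA or its reverse complement TGAGTCA, and 1.55% held TGACGTCA, which is its own reverse complement. Shown are the window of 1 start of Prom1, with a match in capitals at position -88, and 30 bases of Cldn7 around a match at -38 from its second start. The windows of the other start of Prom1 and of the first start of Cldn7 held no match. Also shown are a window of Spp1 and the window of Epcam, genes that rose. No window of Spp1 or Epcam held a match.
Prom1, chr5:44101737-44101986, minus strand: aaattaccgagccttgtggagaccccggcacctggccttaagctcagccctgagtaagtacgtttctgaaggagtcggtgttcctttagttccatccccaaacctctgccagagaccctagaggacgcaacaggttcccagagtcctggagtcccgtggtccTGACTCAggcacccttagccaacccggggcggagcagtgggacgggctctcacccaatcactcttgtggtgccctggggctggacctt
Cldn7, chr11:69965372-69965401, plus strand: tgtcccttcagTGACGTCAggtcactcgac
Spp1, chr5:104434861-104435110, plus strand: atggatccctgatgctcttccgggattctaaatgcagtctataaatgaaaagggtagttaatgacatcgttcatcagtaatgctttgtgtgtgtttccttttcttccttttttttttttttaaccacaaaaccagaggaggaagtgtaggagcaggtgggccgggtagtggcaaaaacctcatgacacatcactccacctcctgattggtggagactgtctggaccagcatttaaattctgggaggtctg
Epcam, chr17:87635729-87635978, plus strand: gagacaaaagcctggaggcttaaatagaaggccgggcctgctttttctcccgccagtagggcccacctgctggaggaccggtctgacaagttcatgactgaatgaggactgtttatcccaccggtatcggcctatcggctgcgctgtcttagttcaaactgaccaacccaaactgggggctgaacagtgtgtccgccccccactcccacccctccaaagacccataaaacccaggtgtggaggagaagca
The windows shown differ in base composition, with 59.2% G and C in that of Prom1, 43.6% in that of Spp1 and 56.4% in that of Epcam. A match describes letters in a window and binding was not measured here.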

How the data were processed

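Spots of the 2-colour arrays were quantified by the authors in Agilent Feature Extraction, version 10.7 as the submitters' processing notes name it and 10.7.3.1 in the headers. The deposited files give median spot and background signals as intensity and processed signals, which were background-subtracted and dye-normalised. They also give the log10 ratio of the processed signals per the file headers, which is 0 where both channels are at background. Values deposited by the authors for the whole series are log2 ratios of Fra-1hep over wild type on every array, not centred (medians -0.18 to 0.06), and correlate with the processed signals at 0.9995 or more on each array.

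Median signals were corrected with normexp (offset 50), which pulls ratios of dim probes towards 0, and normalised by loess in limma 3.58.1 under R 4.3.3. Control and outlier spots had weight 0, and replicate spots were averaged. Probes well above background in Fra-1hep on at least 3 of 5 mouse arrays or in wild type on at least 3 of 6 arrays were tested, which left 30105 probes, after 5 were dropped that lacked a value on the dye-swapped array or on all but 1 mouse sample. Mice 2 and 3 were averaged. For each probe lmFit and eBayes fitted a genotype coefficient and a dye constant, 2-sided, with 3 residual and 5.15 prior degrees of freedom and Benjamini-Hochberg adjustment over all probes. In the estimate the pools of the dye-swapped array weigh the same as all mice together, and its own error is not estimated. The number of arrays limits the precision.

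Members, lists and tests were chosen with earlier results of these data known. All members are named. Each other list is represented by the brightest tested probe of a gene, and up to 3 of its largest rises and 3 of its largest falls are named, with the members' relatives and partners, some of which are not reported here. Of 55681 probes, 26056 had 1 current RefSeq symbol. Apart from the promoter windows, no gene coordinates are given, since the array was designed on another build than the RefSeq annotation. The fit was tested on simulated data. Alternatives changed the background correction, normalisation, dye term, mice 2 and 3, slide, filter, variance model and replicates.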

Additional observations from a re-analysis of the deposited data

How the results depend on the processing

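The count of changed probes was 3483. It was 1579 with the authors' processed signals and loess, 1626 with their log ratios as deposited, 5898 without the dye term and 7585 without the dye-swapped array, and the cause was not tested. With each mouse left out in turn it ran from 2913 to 3304. Of the members, 7 were called in each of these leave-one-out fits and also in the other alternatives, except for 6 with an intensity trend and robust variance, with the authors' processed signals and with their log ratios as deposited. In these 3 settings the call that ended was Spink1 (adjusted p of 0.105, 0.0643 and 0.065). Member values set against an alternative kept their side of the threshold in 167 comparisons and lost a call in the 3 of Spink1. The dim Prom1 probe has a fitted value (log2 0.12, limma adjusted p = 0.511) only without the filter. Slides 1, 2 and 3 held mice 1 and 2, mice 3 and 4 with the dye-swapped array, and mouse 5. Within them Tff3 averaged 3.45, 3.64 and 1.96 over mouse arrays, and Dmbt1 -3.01, -3.17 and -2.94. No paired analysis was possible because all mouse arrays share 1 wild-type pool and the mouse numbers recur in no other group. The dimness of Epcam and Krt7 limits their sizes. The list counts under alternatives were added after seeing the data.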

Other observations

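The secretin receptor gene Sctr, chosen here after its values were seen, gave different values on its probes. Its brightest probe, used for the list of cholangiocyte genes, had a log2 ratio of 0.14 (limma adjusted p = 0.228), while further probes were at 0.68 (adjusted p = 0.00295) and 0.82 (adjusted p = 0.000316). The secretin receptor is made by cholangiocytes and drives ductal bicarbonate secretion.

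Markers of other epithelia that could be carried with liver were also examined. Of 7 tested markers of intestine and stomach, 1 was higher and 2 were lower, and the summed processed signal was 7553 to 9332 in Fra-1hep, against 12744 to 17948 in wild type. The genes named here were chosen after their values were seen. Fabp2, an intestinal fatty acid binding protein (log2 -0.79, SE 0.13, limma adjusted p = 0.00739), and Fcgbp, a mucus protein (-0.45, SE 0.06, adjusted p = 0.00302), fell on all 6 arrays. With the authors' processed signals 1 was lower. Higher was Vil1 (0.72, SE 0.10, limma adjusted p = 0.00422), an actin bundler of microvilli that bile ducts and bile canaliculi also contain. Vil1 was well above background in wild-type RNA on 1 of 6 arrays and was tested only because of its signal in Fra-1hep liver. Of 6 mesothelial markers 3 were tested, and Wt1, chosen in the same way, was higher (0.63, SE 0.12, adjusted p = 0.0125), while Upk3b, Upk1b and Lrrn4 were well above background on 0 arrays.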
